A study of Mus musculus with 3 samples.

Results

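Of the 19301 m6A sites predicted in the mouse macrophage line RAW264.7, 288 (1.49%, 95% Wilson interval 1.33 to 1.67) kept the DRACH consensus at 4 of 5 places and lacked only the C directly after the modified A. DRACH stands for any base but C, a purine, the A itself, a C and any base but G. Members were therefore the sites whose bases on the site's strand of GRCm38 read D, R, A, then a thymine, adenine or guanine, then H. They made up 18.5% of the 1555 non-DRACH sites (16.7 to 20.5) and 19.4% of the 1485 sites with exactly 1 place off the consensus. The other sites were 17746 DRACH sites, 583 that were off only by a G closing the motif, 479 off only by a pyrimidine before the A, 135 off only by a C opening it, and 70 off at several places.

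In m6A, N6-methyladenosine, an adenosine of the RNA carries a methyl group on its base. The mark is common within mRNAs. It is written during transcription by a complex around METTL3 and METTL14, is removed by FTO and ALKBH5, and is read by YTH domain proteins that affect the fate of the transcript. The C after the A is the least variable place of the motif the METTL3 complex prefers, and sites cluster in long exons and near stop codons. Another enzyme, METTL16, methylates a few structured RNAs in a different context.

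All libraries came from 1 condition, untreated RAW264.7 cells, with 3 replicates. RAW264.7 is a line of macrophage-like cells from a mouse tumour induced by a virus. The line was grown in serum-containing medium, poly(A)+ RNA was selected, and m6A was mapped at single nucleotides with miCLIP2, in which an anti-m6A antibody (Synaptic Systems) is crosslinked to RNA and the reverse transcriptase stops beside the crosslink. The deposited values are 1 prediction score per site for the 3 replicates together, so no replicate spread, read count or depth stands behind a single site, and every interval below covers counting error of sites only. Sites are not replicates, and those of 1 transcript share their RNA. Of 15 annotated macrophage marker genes 10 held a listed site, among them Csf1r, Spi1, Cebpa and Cd14. Adgre1, Cd68, Itgam, Mrc1 and Tyrobp held none. Of 14 markers of stem cells, lymphocytes, fibroblasts and epithelium none held a site. A gene with no listed site may still be expressed.

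The members differed first by the base in place of the C. Thymine followed the A in 201 members (69.8%, 64.3 to 74.8), adenine in 58 (20.1%, 15.9 to 25.1) and guanine in 29 (10.1%, 7.10 to 14.1). The 21 nt around a set of members are given here from the reference genome, to show the groups that the results below turn on. Thymine stands for the uracil of the RNA, and capitals mark the 5 bases of the motif with the site in their middle. The first group holds high-scoring members with GGATT, the most frequent motif, and the best members with GAATT and GGATA.
Gpr107 (chr2:31214503-31214523, plus strand): taggatctGGATTgtggtgtg
Ly6e (chr15:74959074-74959094, plus strand): agccacttGGATTctggggtg
Shmt1 (chr11:60789101-60789121, minus strand): agagggtaGGATTgttccggg
Ctnnb1 (chr9:120959952-120959972, plus strand): atacaaatGGATTtggggagt
Chpf (chr1:75474669-75474689, minus strand): ctgtagatGGATTgttggagg
Ctsd (chr7:142376280-142376300, minus strand): gctgagatGGATTgtcttgtc
Trim27 (chr13:21192288-21192308, plus strand): cccagaatGGATTctgggcag
Ap1g1 (chr8:109860229-109860249, plus strand): aatcaaagGAATTctgggaag
Fmnl3 (chr15:99317843-99317863, minus strand): ccaatattGGATAatctttgc
In the second group adenine follows the site, and the base after the capitals' middle A is itself the A of a listed DRACH site.
Clptm1l (chr13:73620309-73620329, plus strand): accccacaTGAACttgggtct
Atf3 (chr1:191170830-191170850, minus strand): tggccacaTGAACtggctggc
Tnfrsf1a (chr6:125362018-125362038, plus strand): gagggactTGAACttcaagga
Tmem9b (chr7:109736820-109736840, minus strand): gctaactgGGAACtggaatca
The third group has guanine after the site.
Elmsan1 (chr12:84151778-84151798, minus strand): agaagtttGGAGTtcgtgccc
Nfkb2 (chr19:46311802-46311822, plus strand): cagtcagtGGAGCaggaggca

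The m6Aboost score of the members lay close to the threshold of the list. It ran from 0.5001 to 0.784 with a median of 0.552, against a median of 0.746 for DRACH sites, 0.678 for sites with a closing G and 0.604 for sites with a pyrimidine before the A. The score is the output of a classifier whose inputs include the transcript region and a window of 21 nt centred on the A. Besides these it uses how strong the miCLIP2 signal at the A is for its transcript, and how often reads there carry C-to-T changes. Neither of these read-based inputs is given per site, so their part in the scores was not tested. The score is therefore described here without a test and is no level of methylation. By base, the median was 0.565 for thymine (quartiles 0.526 and 0.630), 0.541 for adenine (0.516 and 0.562) and 0.527 for guanine (0.514 and 0.547). The quartile ranges of the 3 groups overlapped. Of the 288 members 141 scored below 0.55, where they were 7.46% of all listed sites (6.36 to 8.74), and 16 scored at least 0.7, where they were 0.143% (0.0878 to 0.232). All 16 had thymine after the site, and no member reached 0.9.

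**Figure D1:**
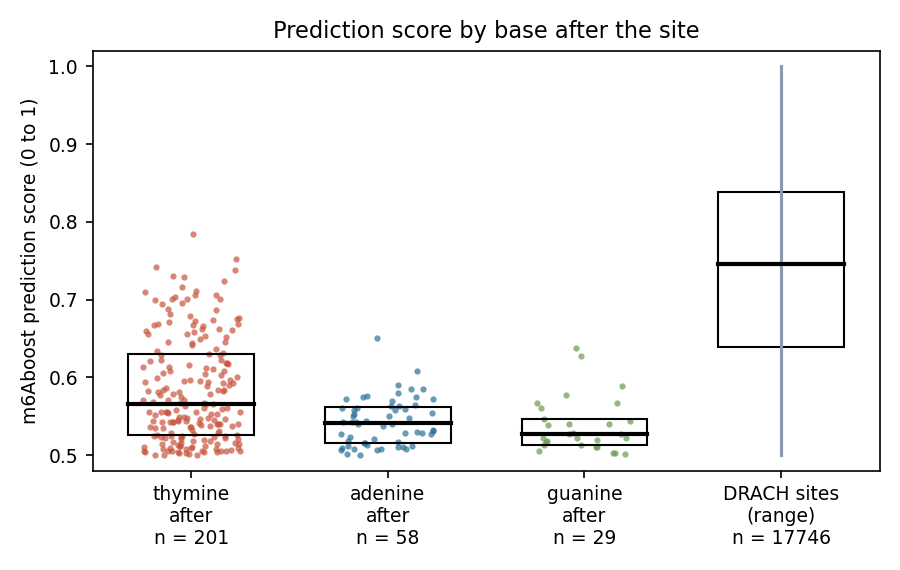
m6Aboost prediction score (vertical axis, no unit) of each member, by the base after the site; every point is 1 member, boxes give the quartiles, thick lines the median, and for DRACH sites the thin line gives the range. Members with thymine after the site reach 0.784, those with adenine 0.651 and those with guanine 0.638, while the median of DRACH sites is 0.746.

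The 10 members with the highest score all read GGATT. The highest was in the last exon of Gpr107, a multi-pass membrane protein, 175 nt past the first base of the stop codon, with a score of 0.784. Ly6e, a lipid-anchored surface protein, followed with 0.752 at 373 nt past that base. The next were Shmt1, the cytosolic serine hydroxymethyltransferase of folate metabolism (0.742), and Ctnnb1, which encodes beta-catenin (0.738). Chpf, a factor of chondroitin synthesis, scored 0.730. The remaining members of the 10 were in the non-coding transcript 1810058I24Rik (0.729), the lysosomal protease gene Ctsd (0.724), the prolyl endopeptidase gene Prep (0.716), Zcchc14 (0.711) and the prenylcysteine oxidase gene Pcyox1 (0.710). Of these 10 members 9 were in the 3′ UTR of a coding transcript. In Trim27, a gene of the tripartite-motif ubiquitin ligases, the member ranked 19 with 0.694, lay in the last of 8 exons at 267 nt past the stop codon's first base, and had a listed DRACH site 46 nt upstream of it with a score of 0.704.

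GGATT accounted for 135 members (46.9%, 41.2 to 52.6), that is, the consensus GGACT with the C replaced. TGAAC followed with 32, GAATT with 23, GGAAC with 15, GGAGT and GGATA with 9 each, and TGATT with 8. Of the 54 pentamers that meet the definition 27 had a member, and 6 of these had 1 each. The median score was 0.583 for GGATT, 0.5501 for TGAAC and 0.555 for GAATT. The highest-scoring GAATT member was in Ap1g1, a subunit of a clathrin adaptor, with 0.686. The highest GGATA member was in the formin gene Fmnl3 (0.605), and the highest GGAGT member in Elmsan1, whose product is part of a histone deacetylase complex (0.628).

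Few occurrences of these motifs were listed. In the exons of the 4793 chosen transcripts with a listed gene, 113 of 13140 GGATT were listed (0.860%, 0.716 to 1.03), against 0.171% of TGAAC (0.119 to 0.245) and 0.130% of GAATT (0.0832 to 0.203). In genes with 5 or more listed sites these shares were 1.71%, 0.452% and 0.273%. The share was 0.0670% for GGAAC and 0.102% for GGATA. Summed over all motifs of the definition it was 0.0224% (239 of 1064855), whereas 4.52% of DRACH occurrences were listed (14890 of 329254). A motif with a closing G was listed at 1.29% of its occurrences and one with a pyrimidine before the A at 0.155%. The GGATT share thus lay above those of the other member motifs, with an interval that did not reach the shares of TGAAC or GAATT, and below the average of DRACH. How many reads covered each occurrence was not known here.

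The listed share of GGATT differed by its place in the transcript. In the CDS 41 of 5751 were listed (0.713%), in the 3′ UTR 69 of 6225 (1.11%), a difference of 0.396 points (0.0527 to 0.742), and in the 5′ UTR 0 of 654 (0 to 0.584). Within 200 nt of the stop codon 33 of 1318 were listed (2.50%, 1.79 to 3.50) and farther away 77 of 11229 (0.686%, 0.549 to 0.856), a ratio of 3.65. For GGACT, the most frequent DRACH motif, the corresponding shares were 39.5% and 13.0%, a ratio of 3.03. The ratio of 3′ UTR to CDS was 1.55 for GGATT and 1.23 for GGACT. The ratios of the 2 motifs were not tested against each other. For GAATT neither pair of places differed beyond the intervals, with 11 of 6021 listed in the CDS (0.183%, 0.102 to 0.327) and 7 of 7626 in the 3′ UTR (0.0918%, 0.0445 to 0.189), and with 2 of 1398 within 200 nt of the stop codon (0.143%, 0.0392 to 0.520) and 16 of 12592 farther away (0.127%, 0.0782 to 0.206).

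**Figure D2:**
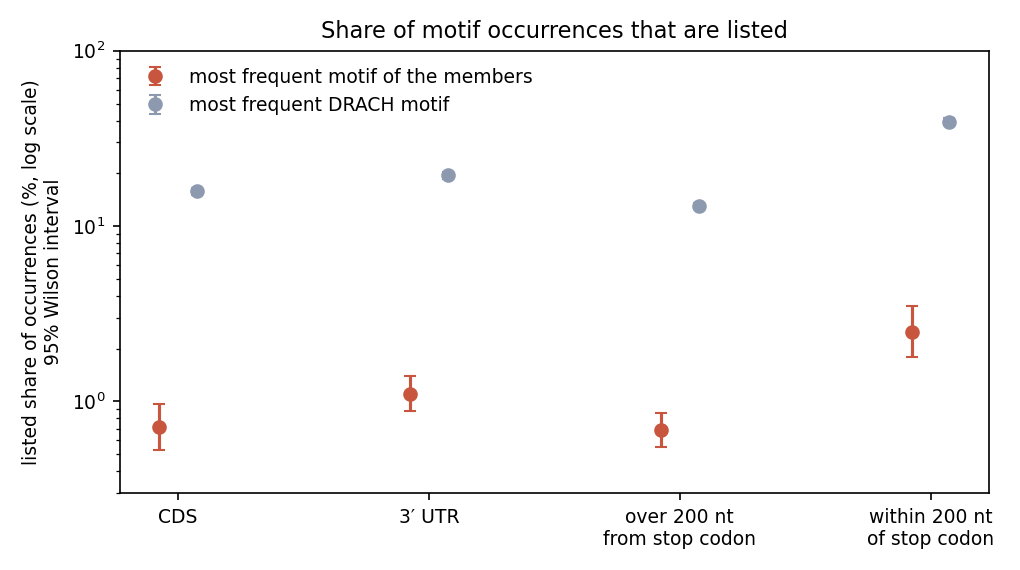
Share of motif occurrences in exons that are listed (vertical log axis, percent, with 95% Wilson intervals) in the CDS, in the 3′ UTR, over 200 nt from the stop codon and within 200 nt of it. The most frequent motif of the members is at 0.686% far from the stop codon and 2.50% near it, and the most frequent DRACH motif at 13.0% and 39.5%.

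The bases next to GGATT also differed between listed and unlisted occurrences. A thymine came directly before 49.6% of listed and 35.3% of unlisted GGATT, a difference of 14.2 points (5.16 to 23.4). A guanine came directly after 41.6% and 22.1%, a difference of 19.5 points (10.8 to 28.8). Less frequent in listed occurrences were guanine before the motif, with a difference of -10.3 points (-15.8 to -2.54), thymine after it (-15.4 points, -21.7 to -7.14) and adenine after it (-10.9 points, -14.2 to -4.85). Of the 16 possible heptamers TGGATTG had the highest listed share, 24 of 955 (2.51%, 1.69 to 3.71), and GGGATTA and CGGATTT had no listed occurrence among 665 and 327. These heptamers are named because of their values, and the classifier reads the flanking bases too.

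Among listed sites, the members were more often in the 3′ UTR and less often in the CDS than DRACH sites. All of them had passed the score threshold, and the score has the region and the motif bases among its inputs, so the part of this selection in the differences of position below cannot be told apart from them. Where the motifs occur also differed. In exons of the chosen transcripts GGATT occurred 5751 times in the CDS and 6225 times in the 3′ UTR. GGACT occurred there 9446 and 7394 times. How far the differences of position go with this was not tested. The 3′ UTR held 167 members (58.0%, 52.2 to 63.5) against 39.3% of DRACH sites, a difference of 18.6 points (12.8 to 24.2), and the CDS held 63 (21.9%, 17.5 to 27.0) against 40.4%, a difference of -18.5 points (-23.0 to -13.3). No member was in the 5′ UTR, an interval of 0 to 1.32%, against 2.03% of DRACH sites. Introns held 13 members (4.51%) and 4.62% of DRACH sites, and the interval of that difference, -1.99 to 2.97 points, included 0. Of the other members 9 were in non-coding exons, 25 outside the chosen transcript of their gene and 11 in genes with no transcript that passed the filter. All 49 members in no exon of the chosen transcript were in an exon of some annotated transcript on that strand.

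The members were also set against both similar classes. Sites with a closing G were in the 3′ UTR in 27.6% (a difference of 30.4 points, 23.5 to 36.9) and in the CDS in 50.6% (-28.7 points, -34.7 to -22.2). Sites with a pyrimidine before the A were in the 3′ UTR in 49.1% (8.93 points, 1.63 to 16.0) and in the CDS in 32.4% (-10.5 points, -16.6 to -3.96). The 5′ UTR held 2.92% of sites with a closing G (-2.92 points, -4.62 to -1.21). It held 0.626% of the pyrimidine class, and the interval of that difference (-0.626 points, -1.83 to 0.753) included 0. Without the 54 members directly before a listed DRACH site, which are described below, the differences from the pyrimidine class were 4.79 points in the 3′ UTR (-3.02 to 12.5) and -6.72 points in the CDS (-13.5 to 0.477), and both intervals included 0.

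**Figure D3:**
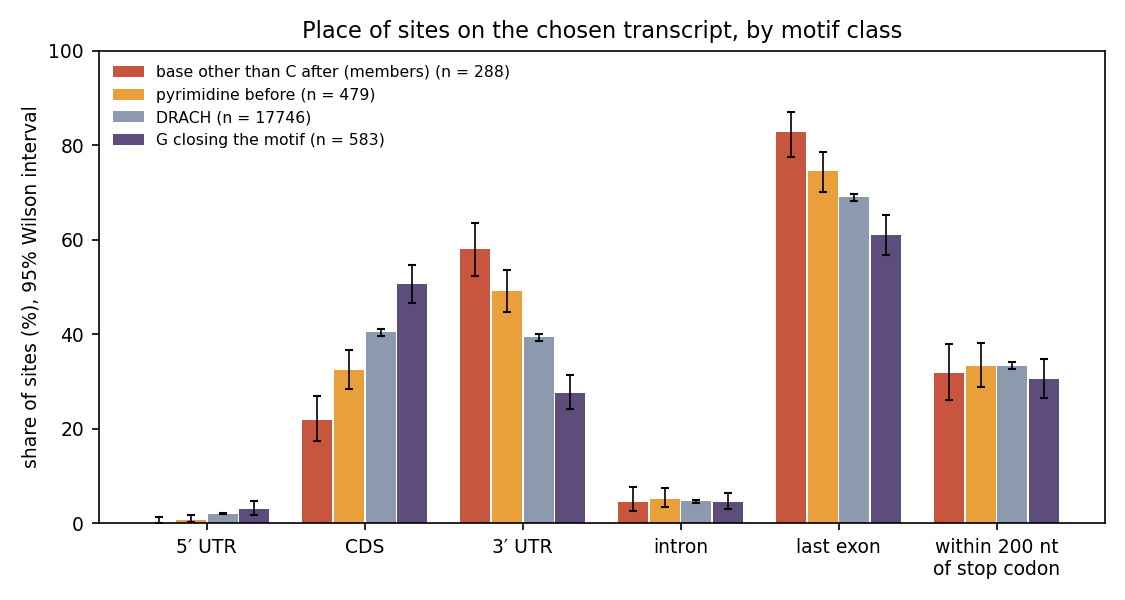
Share of sites (vertical axis, percent, with 95% Wilson intervals) in each transcript region for the members, for sites with a pyrimidine before the A, for DRACH sites and for sites with a closing G. Shares in the last exon are over sites in exons and shares near the stop codon over sites in exons of coding transcripts. Members have the highest share in the 3′ UTR (58.0%) and the last exon (82.8%), and the lowest in the CDS (21.9%).

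The base after the site divided the members here. The 3′ UTR held 51.7% of members with thymine, 75.9% with adenine and 65.5% with guanine, and the CDS held 28.9%, 5.17% and 6.90% of them. Adenine exceeded thymine in the 3′ UTR by 24.1 points (9.98 to 35.6), while guanine exceeded it by 13.8 points with an interval of -5.63 to 29.9. With thymine alone the 3′ UTR share remained above that of DRACH sites by 12.4 points (5.48 to 19.2), and its difference from the pyrimidine class, 2.68 points, had an interval that included 0 (-5.52 to 10.8).

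Around the stop codon fewer members than DRACH sites lay upstream. Of the 230 members on coding transcripts 73 (31.7%, 26.1 to 38.0) lay within 200 nt of the first base of the stop codon, against 33.3% of DRACH sites, a difference of -1.57 points whose interval (-7.30 to 4.75) included 0. Up to 200 nt before the codon lay 5.65% of members and 12.1% of DRACH sites, a difference of -6.45 points (-8.83 to -2.64). From 0 to 200 nt after it lay 26.1% and 21.2%, a difference of 4.88 points (-0.415 to 10.9). The median member was 180 nt past the first base of the codon and the median DRACH site 10 nt before it. The median was 90 nt past that base for the pyrimidine class, 114 nt for members with thymine and 290 nt for members with adenine. Up to 200 nt before the codon, the difference of the members from the pyrimidine class was -5.29 points (-9.47 to -0.637), and without the 54 paired members it was -4.49 points (-8.90 to 0.754). The fullest 100 nt bin of the members was 100 to 200 nt past that base, with 34 members (14.8%), and that of DRACH sites was the first 100 nt (12.2%). A narrower or wider window changed the call on the difference: it was -5.34 points within 100 nt (-9.34 to -0.183) and 7.09 points within 400 nt (0.5796 to 13.4). At 200 nt it was 8.10 points (1.25 to 15.7) with scores below 0.6 in both classes and -10.6 points (-16.6 to -3.88) with the best site of each gene and class. Both settings, chosen after the data were seen, select on a score that has the region among its inputs, and no direction is given for the difference.

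**Figure D4:**
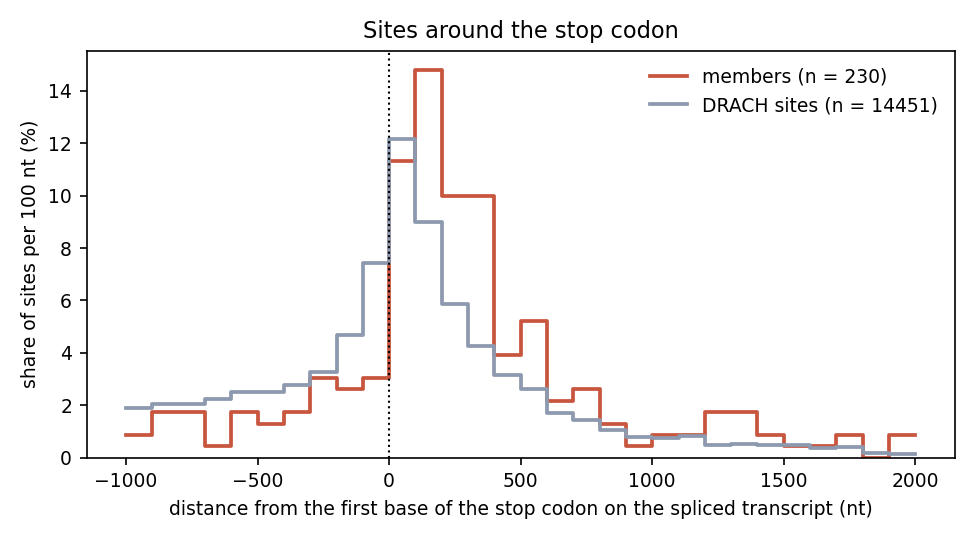
Share of sites per 100 nt (vertical axis, percent) by spliced distance from the start of the stop codon (horizontal axis, nt, dotted line at 0), for members and DRACH sites in exons of coding transcripts. Members peak at 100 to 200 nt past the codon (14.8%) and DRACH sites in the first 100 nt (12.2%).

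Members lay mostly in last exons. Of the 239 members in exons of the chosen transcript 198 (82.8%, 77.6 to 87.1) were in the last one, against 69.0% of DRACH sites, a difference of 13.9 points (8.53 to 18.2). Internal exons over 400 nt held 7.53% of members and 18.01% of DRACH sites, a difference of -10.5 points (-13.3 to -6.37). In the pyrimidine class these shares were 74.6% and 13.3%, and without the 54 paired members the differences from it were 5.58 points (-1.80 to 12.3) and -4.45 points (-9.33 to 1.25), with intervals that included 0. The exon of a member had a median length of 1382 nt and that of a DRACH site 1359 nt. Within 100 nt of an exon junction lay 12.1% of members and 13.4% of DRACH sites, with an interval of the difference of -4.88 to 3.49 points. No member changed its motif when the 239 were read on the spliced transcript, so none of these was a DRACH site hidden by a splice junction.

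The 58 members with adenine after the site nearly all sat beside a DRACH site. In 55 of them the adenine that follows is the A of a DRACH motif, and 54 of those DRACH A were listed. TGAAC followed by a base other than G, for example, holds the DRACH motif GAACH shifted by 1 base. In all 54 pairs the DRACH site had the higher score, by 0.180 to 0.439 (median 0.363). The classifier reads the motif bases that define both kinds of site, so this direction is a description and supports nothing. It also uses the miCLIP2 signal at each A, whose part in the pairs was not tested. The members of the pairs had a median score of 0.541 and their partners one of 0.905, with a lowest partner at 0.730. In Clptm1l the member scored 0.651 and its partner 0.929. In Atf3, a transcription factor induced by stress and by Toll-like receptor signals, the values were 0.608 and 0.907. In Tnfrsf1a, a receptor for tumour necrosis factor, they were 0.540 and 0.898, and in Tmem9b 0.563 and 0.910.

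Such a pair was the exception among DRACH sites. Of 4182 listed DRACH sites that directly follow an A meeting the definition of a member, 54 (1.29%, 0.991 to 1.68) had that A listed as well. This share went with the score of the DRACH site: it was 0 of 1525 at scores from 0.5 to 0.7 (0 to 0.251), 0.110% from 0.7 to 0.8, 2.07% (1.41 to 3.04) from 0.8 to 0.9 and 5.21% (3.63 to 7.43) from 0.9. It also went with the bases before the A. TGAAC was listed before 32 of 1123 DRACH sites (2.85%, 2.03 to 3.99), GGAAC before 15 of 862 (1.74%, 1.06 to 2.85) and AGAAC before 5 of 1212 (0.413%, 0.176 to 0.962). For GAAAC the count was 0 of 402 (0 to 0.947). Both A of a pair are scored by the same classifier on overlapping windows, so these trends are a description and support nothing. DRACH sites of 0.9 or more were themselves in the 3′ UTR in 65.5% (63.1 to 67.7), beside the 75.9% of the members with adenine after the site.

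**Figure D5:**
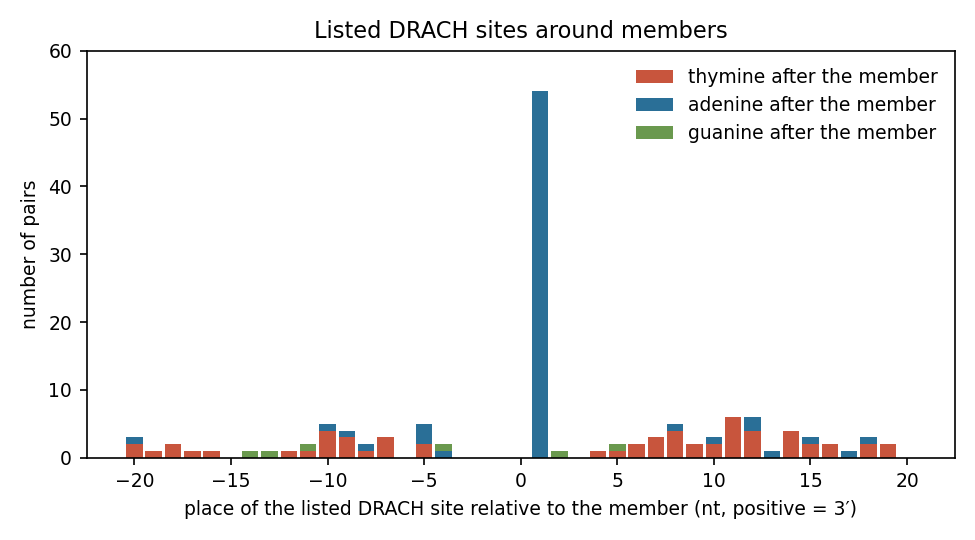
Number of pairs of a member and a listed DRACH site (vertical axis) by the place of the DRACH site relative to the member (horizontal axis, nt, positive is 3′), stacked by the base after the member. The 54 pairs at 1 nt all have adenine after the member, and every other offset up to 20 nt holds at most 6 pairs.

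Members with another base after the site had DRACH neighbours less often. A listed DRACH site lay within 10 nt of 27 of the 201 members with thymine (13.4%, 9.40 to 18.8) and within 5 nt of 4 of them, and within 10 nt of 3 of the 29 with guanine. Of the 66 DRACH A within 10 nt of members with thymine 28 were listed (42.4%, 31.2 to 54.4). Over all members another listed site of any kind lay within 10 nt in 31.3% against 10.1% for DRACH sites. Without the 54 members directly before a DRACH site the share was 15.4%, a difference of 5.28 points (1.19 to 10.5) from DRACH sites. The difference was 5.61 points (0.742 to 11.2) from sites with a closing G. From the pyrimidine class it was 4.53 points, with an interval that included 0 (-0.582 to 10.3). Within 100 nt the share of these 234 was 66.7%, a difference of 7.27 points (0.960 to 13.0) from DRACH sites. The interval included 0 against sites with a closing G (-0.239 to 14.2), against the pyrimidine class (-1.46 to 13.4) and, for members with thymine alone, against DRACH sites (-0.0578 to 13.0). Against DRACH sites the same 234 members kept the differences in region, with 53.8% in the 3′ UTR (14.5 points, 8.06 to 20.8) and 25.6% in the CDS (-14.7 points, -19.96 to -8.74).

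The members were spread over 270 of the 4947 genes with a listed site (5.46%). Of these genes 253 held 1 member, 16 held 2 and 1, Tns3, held 3. A gene with a member had a median of 6 listed sites and all genes with a site one of 3, where more sites in a gene also give more chances of a member, and 93.1% of members (89.5 to 95.5) shared their gene with another listed site, as 93.2% of DRACH sites did. In 20 genes the member was the only listed site. Tns3 encodes tensin 3, which links integrin adhesions to actin. Its 21 listed sites included members with scores of 0.584 (GGATC), 0.547 (TGAGT) and 0.513 (TGAGT), the first of which lies 9 nt downstream of the second on the minus strand and so within the bases the classifier read for it. The last lies 4 nt downstream of a DRACH site with a score of 0.938.

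The members were also counted in gene groups of macrophage biology and of general regulation. Of 36 innate immune signalling genes with a listed site 4 held a member (11.1%, 4.41 to 25.3), beside 5.46% of all genes with a site. Tlr4, the receptor for bacterial lipopolysaccharide, had its member at TAATA in an intron of the chosen transcript, with a score of 0.542. Nfkb2, whose product is processed to the p52 subunit of NF-kappaB, had its only listed site, at GGAGC with 0.522, in the CDS of its last exon at codon place 2 and 80 nt before the stop codon. Tnfrsf1a is described above, and Socs3, an inhibitor of cytokine signalling, held a member at 0.517, which is outside the naming rule and was named after its value was seen.

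Of 27 macrophage transcription factors with a site 1 held a member, Atf3 (3.70%, 0.657 to 18.3). Of 47 chromatin regulators 3 did. Among these, Kmt2a, a histone H3 lysine methyltransferase, had one at 0.538, and Kdm2a, a histone demethylase, one at 0.525 in its 3′ UTR.

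Of 67 ubiquitin ligase and protease genes with a site 5 held a member (7.46%, 3.23 to 16.3). Besides Trim27 these were Rnf213, a large ligase, at TGATT with 0.661, Usp16, a deubiquitinase of histone H2A, with 0.60002, Usp4 with 0.561 in the 3′ UTR, and Trim25, a ligase of antiviral signalling, with 0.506, named after its value was seen like Socs3. The member of Usp16 was the only listed site of its gene, at codon place 1 in an exon of 664 nt. Of 74 numbered zinc finger genes 1 held a member, Zfp106, at 0.555. None of the 11 genes of the m6A machinery with a site held one, nor did any of 24 genes of the cell cycle and DNA repair. The intervals of all these shares included the 5.46% of all genes.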

How the data were processed

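The authors mapped miCLIP2 reads to the mouse genome GRCm38.p6, removed duplicates by molecular identifiers, handled reads carrying C-to-T transitions separately, ran PureCLIP for peaks and scored the A peaks found in several replicates with m6Aboost. The submitters' processing notes name STAR 2.7.3a, SAMtools 1.9, UMI-tools 1.0.0 and bedtools 2.27.1. The deposited file holds 1 score per site, above 0.5, for the 3 replicates together. It gives no counts, so the depth behind a single site is unknown. Every listed site passed a score that has the motif bases and the transcript region among its inputs, so the regions of all classes were measured after that selection. The series description calls the line human, while the organism label says mouse, and all 19301 sites fell on A in the mouse genome.

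Bases were read from the GRCm38 reference (C57BL/6J), not from the libraries. A motif base that differs in this line from the reference would therefore not be seen, and this was not tested. Sites were placed on the longest transcript, by genomic span, of their gene in GENCODE M21 (the authors used a later release) with a transcript support level of at most 3 and an annotation level of at most 2. Sequences come from the genome reference. Shares have Wilson and differences Newcombe intervals at 95%, and a difference was called where its interval excluded 0. No p-value was computed. Scripts ran in Python 3.11.15 with NumPy 2.4.6, SciPy 1.17.1, pysam 0.24.0 and matplotlib 3.10.9 and were tested on simulated data with known answers.

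The members, gene lists and markers were chosen with earlier results of these data known. Members named were the 10 with the highest score, the best of each of the 6 most frequent pentamers, genes with 3 members or more, members in up to 12 list genes by score, and Trim27. A named item is not reported here. Alternatives were higher score thresholds, sites within 5 nt collapsed, other transcript choices, other windows and, chosen after seeing the data, scores below 0.6, thymine members alone and 1 site per gene and class.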

Additional observations from a re-analysis of the deposited data

How the results depend on the processing

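Of 101 values recomputed under an alternative, 69 kept their direction and call, stayed within the interval of the reported value (for a median score, within 1 SD over sites) or, for the count of members, within 1.5 times of it. These include the intron difference, which was never called and changed its sign under 4 alternatives (0.36 to 1.87 points, against -0.101). The 288 members became 226 with sites within 5 nt collapsed, 239 with the motif read on the spliced transcript, where only sites in exons count, and 224 with a purine at the first place. No paired analysis was possible because the deposited list has 1 pooled value per site from 1 condition, which also means that leaving out a replicate was not possible. With a minimum score of 0.7 the members fell from 288 to 16 and with 0.9 to 0. At 0.7 the shares became 100% with thymine, 0% with adenine and 0% with guanine after the site, 87.5% in the 3′ UTR, 0% in the CDS, and 18.8% with a DRACH A and 18.8% with a listed DRACH site within 10 nt, and the 5′ UTR difference from DRACH sites was -0.775 points with an interval that included 0. Collapsing sites within 5 nt gave 86.7% with thymine and 1.77% with adenine, since the higher-scoring DRACH partner was kept. The longest spliced transcript gave 17.0% in the CDS and 2.08% in introns, and no support filter gave 64.2% in the 3′ UTR. Windows of 100 and 400 nt around the stop codon held 14.3% and 56.5% of members, and the difference from DRACH sites was -5.34 and 7.09 points, both called and of opposite sign, while at 200 nt it was not called. Windows of 5 and 20 nt gave 27.1% and 62.5% of members with a DRACH A and 21.2% and 39.2% with a listed DRACH site. In genes with 5 or more sites the listed share was 1.71% for GGATT, 0.273% for GAATT and 0.452% for TGAAC. Among alternatives chosen after seeing the data, thymine members alone gave 28.9% in the CDS, 51.7% in the 3′ UTR, and 28.9% with a DRACH A and 13.4% with a listed DRACH site within 10 nt. The stop codon difference was 8.10 points at scores below 0.6 and -10.6 points with 1 site per gene and class, both called; the cause was not tested. The CDS and 3′ UTR differences from DRACH sites kept their sign and call under every alternative run, but their size moved from 18.6 points to between 10.8 (1 site per gene and class) and 39.9 (minimum score 0.7) in the 3′ UTR, and from -18.5 to between -11.5 (thymine alone) and -34.0 (minimum score 0.7) in the CDS. Below 0.6 they were 32.0 and -27.5 points. The whole list was selected on a score that has the region among its inputs.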

Other observations

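Farther from the motif, members with thymine after the site had adenine 4 bases before the site in 50.2% (43.4 to 57.1), against 39.3% of DRACH sites, thymine 3 bases before it in 43.3% (36.6 to 50.2), against 26.8%, thymine 4 bases after it in 46.8% (39.99 to 53.7), against 36.1%, and guanine 6 bases after it in 47.3% (40.5 to 54.2), against 31.3%. Guanine 3 bases after the site, which directly follows the motif, was at 35.8% (29.5 to 42.7) in these members and 39.9% in DRACH sites. These bases were picked after the shares at 16 places were seen, and the classifier reads all of them.

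In the CDS 19 members were at codon place 1, 31 at place 2 and 13 at place 3. The share at place 2 was 49.2% (37.3 to 61.2) and in DRACH sites 49.6%. Soft-masked repeats of the reference held 15 members (5.21%) and 4.39% of DRACH sites, with an interval of the difference of -1.23 to 4.04 points. The GC content of the sequence from 11 to 50 nt on each side had a median of 53.8% for members and 55.0% for DRACH sites. The plus strand held 50.7% of members.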
